A study of Capra hircus with 20 samples.

Results

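The Krüppel-like factors (KLFs) are zinc-finger transcription factors, and 10 of them (KLF2, KLF3, KLF4, KLF5, KLF6, KLF7, KLF9, KLF10, KLF11 and KLF15) were followed across goat preadipocytes and adipocytes of muscle and of subcutaneous fat. The members were found by gene symbol in the table of mRNA transcripts, which held 43766 transcripts of 20587 gene symbols. All 10 were present, with 25 transcripts between them, and the FPKM values (fragments scaled to transcript length and to the mapped fragments of the library) of a gene's transcripts were summed to give its level. The series held 20 libraries in 4 groups of 5: intramuscular preadipocytes (IMPA) and intramuscular adipocytes (IMA) from the longissimus dorsi muscle, and subcutaneous preadipocytes (SPA) and subcutaneous adipocytes (SA) from subcutaneous fat. The cells came from 7-day-old male Jianzhou Daer goats. Preadipocytes were taken at day 0, before induction, and adipocytes after 3 days in a medium with oleic acid. No gene was deleted or overexpressed in any group. The goat behind each replicate number is not given in the sources used here, so the p-values measure the spread between these cultures.

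KLF proteins bind GC-rich and CACCC elements in promoters through zinc fingers at their carboxyl end, and their differing amino ends recruit co-activators or co-repressors. In adipocyte differentiation they act at successive steps of the cascade that leads to PPARG and CEBPA, the master regulators of the fat cell. KLF4 activates CEBPB early, KLF5 activates PPARG together with the C/EBP proteins, KLF6 represses the preadipocyte gene DLK1, KLF9 activates PPARG in mid-differentiation, and KLF15 promotes PPARG and the glucose transporter SLC2A4, so these members are known as pro-adipogenic. KLF2 represses the PPARG promoter, KLF3 recruits the CtBP co-repressors to CEBPA, and KLF7 holds back differentiation, so they are known as anti-adipogenic. KLF10 and KLF11 are early genes induced by transforming growth factor beta (TGF-beta), and they were left without a role in adipogenesis.

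The cell labels were checked against marker genes. The summed level of 9 skeletal muscle markers was 2542 to 2934 FPKM in IMPA and 8502 to 9117 FPKM in IMA, against 6.50 to 18.8 FPKM in SPA and 7.27 to 8.67 FPKM in SA. MYOG, the myogenic regulatory factor myogenin, was at 649 FPKM in IMPA and 736 FPKM in IMA, so the intramuscular libraries held a strong myogenic signal that their labels do not name. The summed level of 7 adipocyte markers was 11.1 to 11.9 FPKM in IMPA, 7.19 to 8.41 in IMA, 10.7 to 12.1 in SPA and 9.90 to 12.1 in SA. CEBPA alone averaged 9.23, 5.42, 5.05 and 3.91 FPKM in these groups, and most of the 7 genes averaged under 1 FPKM in IMPA, IMA and SPA. These sums hide a difference between the cell types. Of the 2 genes that averaged at least 1 FPKM over the 20 libraries, CEBPA was higher in the intramuscular cells (log2 difference 0.76 at day 0 and 0.39 at day 3). The other was lower there (-2.08 and -2.03). It averaged under 1 FPKM in IMPA and IMA, so it reached that level only through the subcutaneous groups. PPARG averaged 0.475, 0.364, 0.624 and 1.03 FPKM in IMPA, IMA, SPA and SA, so it was low at both stages in both cell types. The 7 fibroblast and preadipocyte markers summed to 4314 to 6767 FPKM in IMPA and 5699 to 6454 in IMA, below the 10476 to 10915 FPKM in SPA and 9633 to 9960 in SA, with the preadipocyte gene DLK1 under 1 FPKM in all 4 groups. The 6 endothelium markers summed to 0.443 to 1.21 FPKM, so the defining genes of endothelium, where KLF2 and KLF4 are abundant, were near 0 in all groups. The 5 immune markers summed to 4.34 to 18.2 FPKM, mostly CD14, with the pan-leukocyte gene PTPRC near 0 in each group. The 5 proliferation markers summed to 68.0 to 87.2 FPKM in IMPA, 67.6 to 80.9 in IMA, 27.5 to 33.0 in SPA and 122 to 136 in SA. Each library had 15126 to 16961 gene symbols above 0. In the alignment statistics of the study, the mapped share of reads does not overlap between the groups in any of the 4 comparisons below, and it cannot be told apart from stage or cell type here. In these bulk samples, fewer cells of a type and less RNA per cell cannot be told apart.

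KLF6 and KLF9 were the most abundant members, and the makeup of the family differed between the cell types. KLF9 led in IMPA with 30.9 ± 2.16 FPKM (SD, n = 5), ahead of KLF6 in all 5 libraries, whereas KLF6 led in IMA, SPA and SA. KLF6 and KLF9 together made up 57.1% ± 2.33 of the summed FPKM of the 10 members in IMPA and 57.3% ± 1.78 in IMA, against 49.9% ± 2.21 in SPA and 45.7% ± 3.72 in SA. KLF4 rose from the fifth place in IMPA to the second in SA, where it made up 15.9% ± 0.934 of the family against 5.99% ± 0.492 in IMA. KLF2 was the ninth and KLF15 the last in every group.

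Many neighbours in the order could not be separated. In IMPA, the ranges of KLF3, KLF10, KLF4 and KLF7 overlapped between neighbours, at means of 9.62 to 7.20 FPKM. In IMA, KLF6 and KLF9 overlapped in range, though KLF6 was higher in 5 of 5 libraries, and KLF11, KLF4, KLF5 and KLF3 lay between 6.58 and 5.92 FPKM with overlapping ranges. In SPA, KLF10, KLF4, KLF3 and KLF7 overlapped, as did KLF5, KLF11 and KLF2. In SA, KLF4, KLF9, KLF10, KLF3 and KLF7 overlapped between neighbours, while KLF6 stood above them in 5 of 5 libraries.

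**Figure D1:**
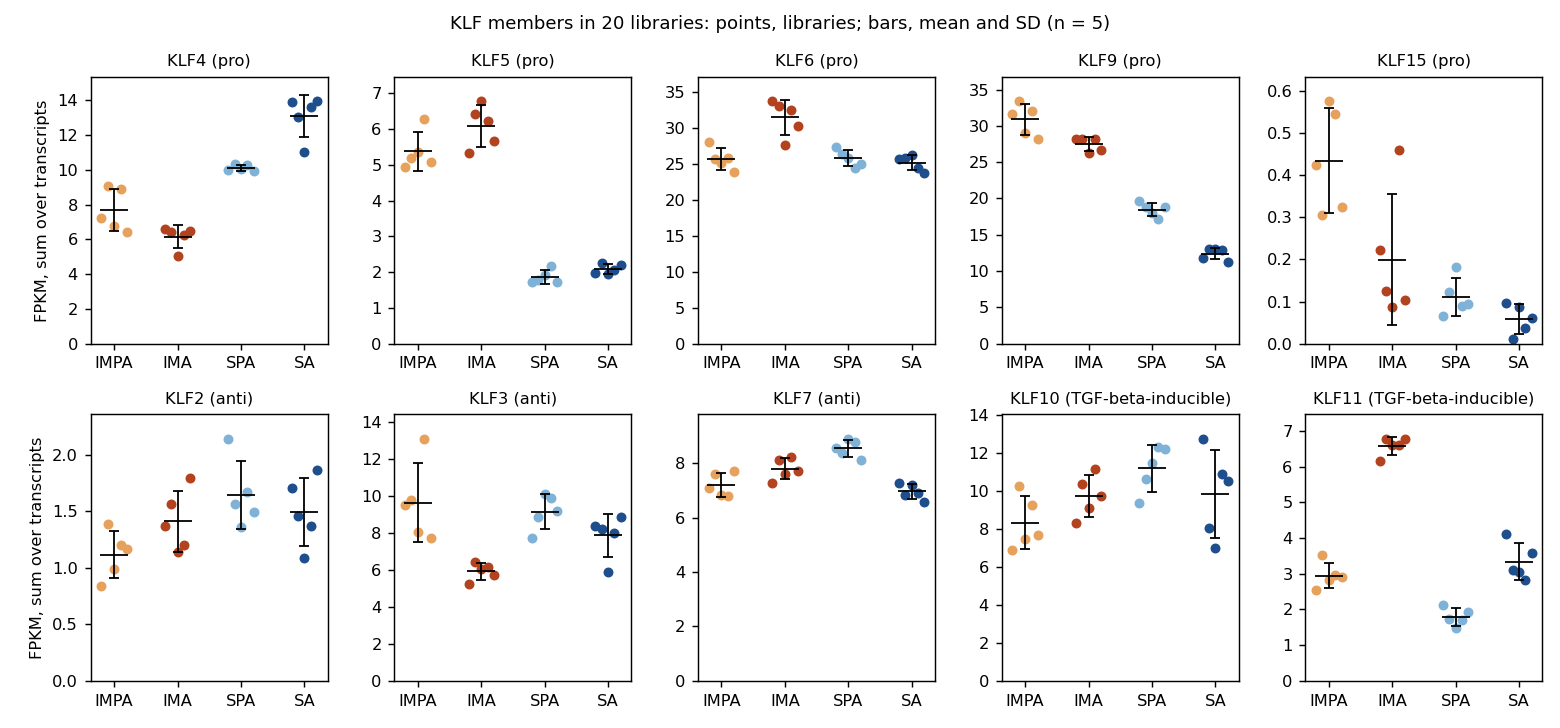
Level of each of the 10 KLF members in the 20 libraries, as FPKM summed over the gene's transcripts (linear axes from 0, a scale of its own for each gene). Points are libraries and black bars the mean and SD of 5 libraries; the means of KLF5, KLF9 and KLF15 are higher in the intramuscular groups (IMPA, IMA), KLF4 higher in the subcutaneous groups (SPA, SA), and KLF11 is highest in IMA at 6.15 to 6.78 FPKM.

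The family's summed level was 99.3 ± 7.28 FPKM in IMPA, 103 ± 4.64 in IMA, 88.6 ± 0.351 in SPA and 82.3 ± 3.92 in SA. The 5 pro-adipogenic members summed to 70.1 ± 4.45 and 71.4 ± 3.74 FPKM in IMPA and IMA, and to 56.3 ± 1.76 and 52.8 ± 1.11 FPKM in SPA and SA. Every intramuscular library lay above every subcutaneous one, with 63.9 FPKM the lowest intramuscular and 58.7 the highest subcutaneous sum. Of all genes tested, 63.4% did not overlap between the cell types at day 0 and 58.6% at day 3. The members of this sum differed unequally. KLF9 averaged 30.9 against 18.5 FPKM at day 0 and 27.5 against 12.4 at day 3. KLF6 averaged 25.7 and 25.8 FPKM at day 0, and KLF4 was lower in the intramuscular cells at both stages. The 3 anti-adipogenic members summed to 17.9 ± 2.04 FPKM in IMPA, 15.1 ± 0.843 in IMA, 19.3 ± 0.920 in SPA and 16.3 ± 1.29 in SA. For this sum the stages overlapped in the intramuscular cells (15.9 to 21.1 against 13.9 to 16.1 FPKM) and did not overlap in the subcutaneous cells (18.4 to 20.3 against 14.2 to 17.3 FPKM). Of all genes tested, 43.5% did not overlap between the intramuscular stages and 38.8% between the subcutaneous ones.

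**Figure D2:**
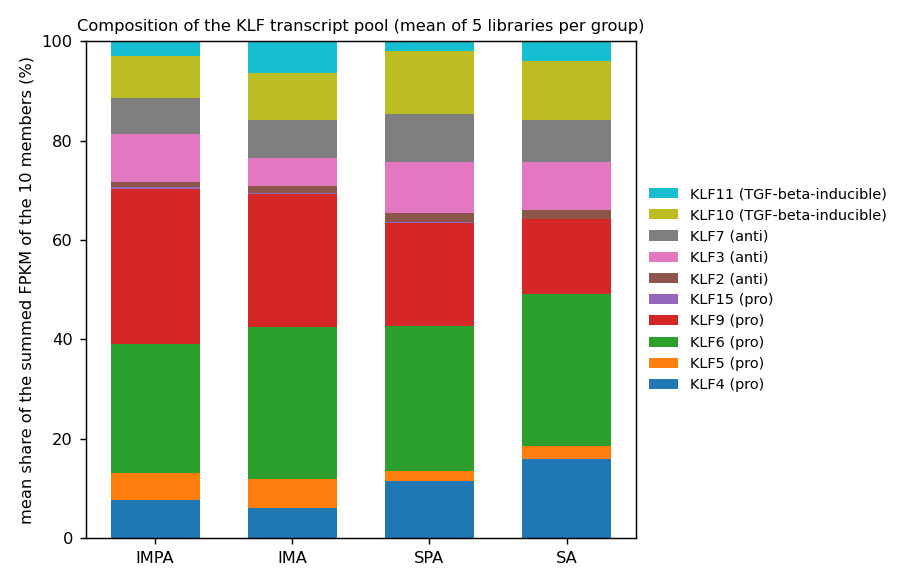
Mean share of each KLF member in the summed FPKM of the 10 members (%, stacked to 100, n = 5 libraries per group). KLF9 takes 31.1% of the sum in IMPA and 15.1% in SA, and KLF4 takes 5.99% in IMA and 15.9% in SA.

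Of the 10 members, 9 averaged at least 1 FPKM over the 20 libraries and entered the test across 11432 genes (limma's moderated test on log2(FPKM + 1), called at a Benjamini-Hochberg adjusted p under 0.05). KLF15 was below that level and was tested on its own. After induction of the intramuscular cells, 5 of 9 members were called, 2 higher (KLF6, KLF11) and 3 lower (KLF3, KLF4, KLF9), where 60.1% of all genes tested were called, 19.9% higher and 40.2% lower. The groups did not overlap for 2 members, against 43.5% of all genes. After induction of the subcutaneous cells, 4 of 9 members were called, 2 higher (KLF4, KLF11) and 2 lower (KLF7, KLF9), where 52.1% of all genes were called, 26.1% higher and 26.0% lower. These 4 did not overlap, against 38.8% of all genes. Of all genes called in the subcutaneous cells 2982 were higher and 2975 lower, a split that became 2327 higher and 4052 lower with each library scaled to an equal total. Between IMPA and SPA, 7 of 9 members were called, 3 higher and 4 lower in IMPA, where 75.1% of all genes were called, 42.3% higher and 32.9% lower. This split of 4831 higher and 3757 lower became 4095 higher and 4610 lower after quantile normalization. The groups did not overlap for 5 members, against 63.4% of all genes. Between IMA and SA, 7 of 9 members were called, 5 higher and 2 lower in IMA, where 72.4% of all genes were called, 29.0% higher and 43.4% lower. The groups did not overlap for 6 members, against 58.6% of all genes. The stage changes differed between the cell types for 6 of 9 members, where 55.3% of all genes were called in that test, 20.7% higher and 34.6% lower in IMA minus IMPA than in SA minus SPA. These were 2368 genes higher and 3951 lower, and 2987 and 3241 after quantile normalization. Of the 6 members, 4 were higher (KLF6, KLF7, KLF9, KLF11) and 2 lower (KLF3, KLF4) in that difference. Counts over 9 members set against these shares carry no result on the family as a whole. Both comparisons of one group share that group's libraries, so the comparisons are not independent of each other. The summed muscle markers were higher and the summed fibroblast and preadipocyte markers lower in every intramuscular library than in every subcutaneous one. Of 6 fibroblast and preadipocyte markers tested, 4 were lower in IMPA than in SPA and 5 in IMA than in SA. The rest of them were not called. The summed muscle markers were also higher in IMA than in IMPA, where 7 of 9 were higher, 1 was lower and 1 was not called. The part of these markers in the members' differences in those comparisons was not tested.

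**Figure D3:**
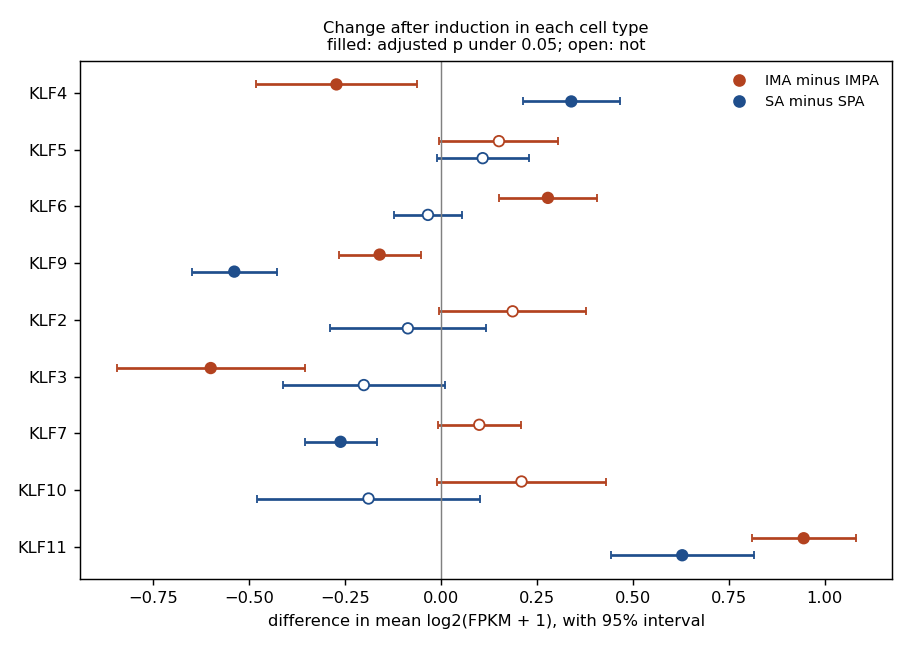
Change of 9 KLF members after 3 days of induction, as the difference in mean log2(FPKM + 1) with its 95% interval, for IMA minus IMPA (red) and SA minus SPA (blue), 5 libraries in each group. Filled points passed an adjusted p under 0.05; KLF4 lies below 0 in the intramuscular and above 0 in the subcutaneous cells, and KLF11 lies above 0 in both.

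KLF4, the activator of CEBPB, went in opposite directions in the intramuscular and subcutaneous cells. Its level was 10.0, 10.3, 10.1, 10.3 and 9.94 FPKM in the 5 SPA libraries and 13.9, 13.1, 11.0, 13.6 and 13.9 FPKM in the 5 SA libraries, and every SA library lay above every SPA library. The mean was 29.6% higher in SA (log2 difference 0.34 ± 0.058 SE, adjusted p = 0.000371 by limma). In the intramuscular cells it was 7.24, 9.07, 6.77, 8.93 and 6.44 FPKM in IMPA and 6.60, 6.44, 5.04, 6.28 and 6.46 FPKM in IMA, with overlapping groups. The mean in IMA was 0.802 of that in IMPA (log2 difference -0.27 ± 0.096, adjusted p = 0.028 by limma). That call was lost in 8 of 21 alternative fits, among them those without IMPA replicate 2, IMPA replicate 4 or IMA replicate 3 (adjusted p = 0.0672, 0.0691 and 0.0649), and the difference stayed negative in all of them. The stage changes differed from each other by -0.61 ± 0.116 (adjusted p = 0.000141), a difference called in all 31 alternatives. At day 3, KLF4 was 2.13 times higher in SA than in IMA (IMA minus SA -0.98, 95% interval -1.14 to -0.82), and at day 0 it was 1.32 times higher in SPA than in IMPA (-0.37, interval -0.54 to -0.19), with no overlap at either stage.

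The transcripts of KLF4 differed in the same libraries. KLF4 had 3 transcripts, of which XM_018052560.1 carried 73.5% to 79.95% of the gene's FPKM in the group means. This main transcript gave 5.63 ± 0.766 FPKM in IMPA, 4.602 ± 0.771 in IMA, 7.72 ± 0.244 in SPA and 10.5 ± 1.26 in SA. Among 16706 transcripts tested, it rose from SPA to SA (log2 difference 0.39, adjusted p = 0.00428 by limma, where 25.9% of all transcripts passed) and was not called from IMPA to IMA (-0.25, interval -0.50 to 0.01, adjusted p = 0.13). A second transcript, XM_018052559.1, was listed at 0 in all 5 IMA libraries and in IMPA replicate 1. It stood at 2.00, 1.63, 2.20 and 0.872 FPKM in the other IMPA libraries and at 1.52 to 2.56 FPKM in the 10 subcutaneous libraries. Its difference between IMA and IMPA passed the test (adjusted p = 0.0138, and 0.000294 to 0.0348 with each library left out in turn), where 33.4% of all transcripts passed. The third transcript, XM_018052558.1, was higher where the second was at 0: it was at 1.95 FPKM in IMPA replicate 1 and 0.972 to 2.61 FPKM in IMA, against 0.356 to 0.499 FPKM in the other IMPA libraries. The sum of these 2 transcripts overlapped between IMPA (1.23 to 2.64 FPKM) and IMA (0.972 to 2.61 FPKM). How the reads were divided between these 2 transcripts upstream was not tested.

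**Figure D4:**
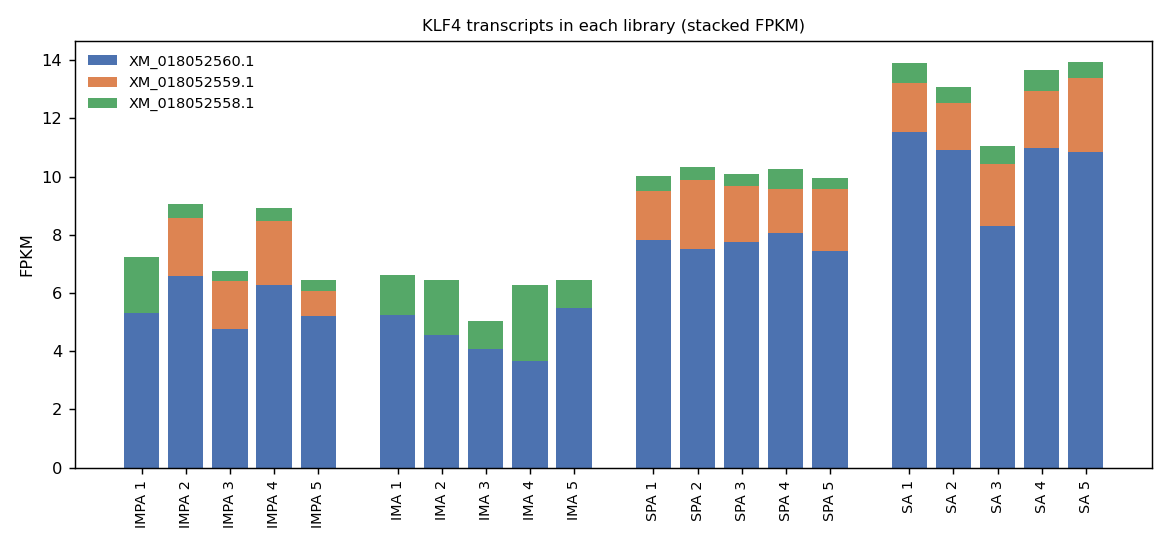
FPKM of the 3 KLF4 transcripts in each of the 20 libraries, stacked (linear axis from 0; numbers after the group names are replicates). XM_018052559.1 is at 0 in IMPA replicate 1 and in all 5 IMA libraries, where XM_018052558.1 takes a larger part of the bar, and XM_018052560.1 is highest in SA.

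KLF5, which activates PPARG together with C/EBP proteins, was higher in the intramuscular cells at both stages. It was at 4.94, 5.20, 5.37, 6.29 and 5.08 FPKM in IMPA and at 5.32, 6.43, 6.78, 6.23 and 5.66 FPKM in IMA. In the subcutaneous cells it was at 1.73, 1.77, 1.92, 2.18 and 1.72 FPKM in SPA and at 1.97, 2.26, 1.94, 2.04 and 2.20 FPKM in SA. Each intramuscular library lay above each subcutaneous one, and the means differed 2.89 times at day 0 (log2 difference 1.15 ± 0.065, adjusted p = 5.33e-09 by limma) and 2.92 times at day 3 (1.20 ± 0.065, adjusted p = 6.61e-10). The stage changes were 0.15 (95% interval -0.00 to 0.31, adjusted p = 0.084) in the intramuscular and 0.11 (-0.01 to 0.23, adjusted p = 0.116) in the subcutaneous cells. The first was called under upper-quartile scaling, under quantile normalization and with all 20 libraries in the fit (adjusted p = 0.0410, 0.0174 and 0.0492). It was also called without IMPA replicate 4 or IMA replicate 1 (adjusted p = 0.0204 and 0.0347), and the second without SPA replicate 4 (adjusted p = 0.0319). The interval of their difference ran from -0.15 to 0.23. The muscle markers also differed between the cell types, at 2542 FPKM or more in each intramuscular library and 18.8 or less in each subcutaneous one. Their sum was 2542 to 2934 FPKM in IMPA and 8502 to 9117 FPKM in IMA. Their part in the difference of KLF5 between cell types was not tested.

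KLF6, the repressor of DLK1, rose in the intramuscular cells. Its level was 28.1, 25.7, 25.1, 25.8 and 23.8 FPKM in IMPA and 33.7, 33.1, 27.7, 32.5 and 30.3 FPKM in IMA, where one IMA library fell within the IMPA range. The mean was 1.22 times higher in IMA (log2 difference 0.28 ± 0.058, adjusted p = 0.0014 by limma). SPA (24.5 to 27.3 FPKM) and SA (23.7 to 26.3 FPKM) overlapped, with a difference of -0.03 (interval -0.12 to 0.05, adjusted p = 0.51 by limma). With each library scaled to an equal total, the difference was -0.10 and was called (adjusted p = 0.0181 by limma). The stage changes differed by 0.31 ± 0.072 (adjusted p = 0.001). IMPA and SPA had means of 25.7 and 25.8 FPKM (difference -0.00, interval -0.10 to 0.10), and by day 3 IMA stood 1.25 times above SA without overlap (adjusted p = 0.000174). Its main transcript, XM_018057330.1, held 85.3% to 94.1% of the gene's FPKM in the group means and showed the rise as well (IMA minus IMPA 0.30, adjusted p = 0.00784). The lesser transcript, XM_018057331.1, varied from 0.035 to 3.80 FPKM within IMA alone.

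KLF9, an activator of PPARG that also responds to glucocorticoids, was lower after induction, with the larger fall in the subcutaneous cells. It went from 19.6, 18.8, 17.98, 17.1 and 18.8 FPKM in SPA to 11.8, 13.0, 13.1, 12.8 and 11.3 FPKM in SA, with no overlap. The mean in SA was 0.672 of that in SPA (log2 difference -0.54 ± 0.051, adjusted p = 2.64e-06 by limma). In the intramuscular cells it was 31.7, 33.4, 29.1, 32.1 and 28.2 FPKM in IMPA and 28.2, 28.2, 26.3, 28.2 and 26.6 FPKM in IMA. There the groups met at 28.2 FPKM, and the fall was smaller (-0.16 ± 0.049, adjusted p = 0.014). This call was lost under upper-quartile scaling and under quantile normalization (adjusted p = 0.0661 and 0.0671). The stage changes differed by 0.38 ± 0.071 (adjusted p = 0.000127). KLF9 was 1.67 times higher in IMPA than in SPA (0.71, adjusted p = 6.27e-08) and 2.22 times higher in IMA than in SA (1.09, adjusted p = 7.79e-11), with no overlap at either stage. The summed proliferation markers went the other way from KLF9 in the subcutaneous cells (27.5 to 33.0 FPKM in SPA, 122 to 136 in SA). At day 0 they went the same way as KLF9, higher in IMPA (68.0 to 87.2 FPKM) than in SPA. They overlapped between IMPA and IMA (67.6 to 80.9 FPKM), and at day 3 they were lower in IMA than in SA, where KLF9 was higher. The part of the proliferation markers in the level of KLF9 was not tested.

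KLF15, a late pro-adipogenic member, was scarcely detected. It was at 0.424, 0.305, 0.576, 0.546 and 0.324 FPKM in IMPA and at 0.222, 0.124, 0.0877, 0.461 and 0.103 FPKM in IMA. In SPA it was at 0.0648, 0.123, 0.183, 0.0899 and 0.0949 FPKM and in SA at 0.0960, 0.0118, 0.0869, 0.0359 and 0.0609 FPKM. Every IMPA library was above every SPA library, and the means differed by 0.324 FPKM (two-sided exact permutation test, p = 0.00794, the smallest that 5 against 5 allow, and 0.0317 adjusted over the 4 comparisons). IMA exceeded SA by 0.141 FPKM (exact permutation test, p = 0.0159, adjusted 0.0317), though 0.0877 FPKM in IMA replicate 3 lay under 0.0960 in SA replicate 1. The lower means after induction did not pass after adjustment (exact permutation test, IMA minus IMPA -0.235 FPKM, p = 0.0397, adjusted 0.0529, and SA minus SPA -0.0528 FPKM, p = 0.0635, adjusted 0.0635). Without the filter on low values, limma called IMPA against SPA (adjusted p = 0.000359) and IMA against IMPA (adjusted p = 0.0447), and did not call IMA against SA (adjusted p = 0.0954) or SA against SPA (adjusted p = 0.141). KLF15 had 9 annotated transcripts, of which 2 were listed at 0 in every library, and no library reached 1 FPKM in their sum.

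Among the anti-adipogenic members, KLF3, the CtBP-dependent repressor, fell in the intramuscular cells. It was at 9.50, 9.75, 8.05, 13.1 and 7.70 FPKM in IMPA and at 5.23, 6.44, 6.04, 6.14 and 5.72 FPKM in IMA, with every IMA library below every IMPA library. The mean in IMA was 0.615 of that in IMPA (log2 difference -0.60 ± 0.112, adjusted p = 0.00066 by limma), and the call held in all 21 alternatives. In the subcutaneous cells it was at 7.73, 8.84, 10.1, 9.87 and 9.19 FPKM in SPA and at 8.36, 8.23, 5.87, 8.01 and 8.86 FPKM in SA, which overlapped (-0.20, interval -0.41 to 0.01, adjusted p = 0.103). Without SPA replicate 1, the lowest SPA library, that difference was called (adjusted p = 0.0467). The stage changes differed by -0.40 ± 0.155 (adjusted p = 0.0346), a call lost in 17 of 31 alternatives (highest adjusted p = 0.117), 10 of them fits with 1 library left out (IMPA replicates 2 and 4, IMA 1 and 5, SPA 1 and 2, and SA 1, 2, 4 and 5, with adjusted p = 0.0504 to 0.068). IMPA and SPA did not differ past the test (0.05, interval -0.20 to 0.30), and IMA was below SA (-0.35, adjusted p = 0.00277).

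KLF7, an inhibitor of adipocyte differentiation, fell in the subcutaneous cells. It was at 8.55, 8.37, 8.90, 8.76 and 8.11 FPKM in SPA and at 7.26, 6.84, 7.21, 6.91 and 6.57 FPKM in SA, with no overlap (-0.26 ± 0.043, adjusted p = 0.000292 by limma). In the intramuscular cells it was at 6.78 to 7.72 FPKM in IMPA and 7.29 to 8.22 FPKM in IMA, with a difference of 0.10 (interval -0.01 to 0.21, adjusted p = 0.101) that was called under upper-quartile scaling and quantile normalization. The stage changes differed by 0.36 ± 0.062 (adjusted p = 4.78e-05). The cell types therefore changed order, with IMPA below SPA at day 0 (-0.22, adjusted p = 0.000767) and IMA above SA at day 3 (0.14, adjusted p = 0.0183). The second of these calls was lost without IMA replicate 4 (adjusted p = 0.0515) and on the main transcript alone (adjusted p = 0.235).

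KLF2, the repressor of the PPARG promoter, stayed low. It was at 0.843 to 1.39 FPKM in IMPA, 1.14 to 1.79 in IMA, 1.36 to 2.14 in SPA and 1.09 to 1.86 in SA, and all pairs of groups overlapped. Neither stage change passed the test (0.19, adjusted p = 0.0843, in the intramuscular and -0.09, adjusted p = 0.463, in the subcutaneous cells). The first was called without IMPA replicate 2 or IMA replicate 3 (adjusted p = 0.0417 and 0.0453). Their difference of 0.27 (adjusted p = 0.0924) was called without SA replicate 5 (adjusted p = 0.0469). KLF2 was lower in IMPA than in SPA (-0.32 ± 0.087, adjusted p = 0.00509), and IMA against SA was called only under quantile normalization among the alternatives run (-0.22, adjusted p = 0.0479).

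KLF11, a TGF-beta-inducible early gene, had the largest change of the tested members after induction in both cell types. It rose from 2.55, 3.52, 2.82, 2.96 and 2.90 FPKM in IMPA to 6.15, 6.78, 6.60, 6.60 and 6.78 FPKM in IMA, which put the mean 2.23 times higher (log2 difference 0.95 ± 0.062, adjusted p = 1.9e-07 by limma). In the subcutaneous cells it rose from 2.14, 1.74, 1.47, 1.72 and 1.92 FPKM in SPA to 4.11, 3.10, 3.04, 2.84 and 3.59 FPKM in SA, 1.86 times higher (0.63 ± 0.085, adjusted p = 6.07e-05). Neither pair of groups overlapped, and both calls held in every alternative. The rise was larger in the intramuscular cells by 0.32 ± 0.108 (adjusted p = 0.0173), a call lost on the main transcript alone and with a pseudocount of 0.1 (adjusted p = 0.0569 and 0.0991). KLF11 was also higher in IMPA than in SPA (0.50, adjusted p = 6.35e-05) and in IMA than in SA (0.81, adjusted p = 1.99e-07), in each case without overlap.

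KLF10, the other TGF-beta-inducible member, varied most among replicates in SA. It was at 6.91, 10.3, 7.47, 9.27 and 7.69 FPKM in IMPA and at 8.31, 10.3, 9.08, 11.2 and 9.75 FPKM in IMA. In SPA it was at 9.34, 10.6, 11.4, 12.3 and 12.2 FPKM and in SA at 12.7, 8.07, 6.995, 10.9 and 10.5 FPKM, a range that covered most of the other groups. The stage changes of 0.21 (adjusted p = 0.0894) and -0.19 (adjusted p = 0.255) were not called, nor was their difference of 0.40 (adjusted p = 0.0598), which passed in 9 of 31 alternatives, 6 of them without IMPA replicate 2 or 4, IMA replicate 1, SPA replicate 1, or SA replicate 1 or 4 (adjusted p = 0.0162 to 0.0485). The intramuscular change was called without IMPA replicate 2 or IMA replicate 1 (adjusted p = 0.0199 and 0.0487) and under quantile normalization (adjusted p = 0.0267). KLF10 was lower in IMPA than in SPA (-0.39 ± 0.0998, adjusted p = 0.00328), and IMA and SA had means of 9.73 and 9.84 FPKM.

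**Figure D5:**
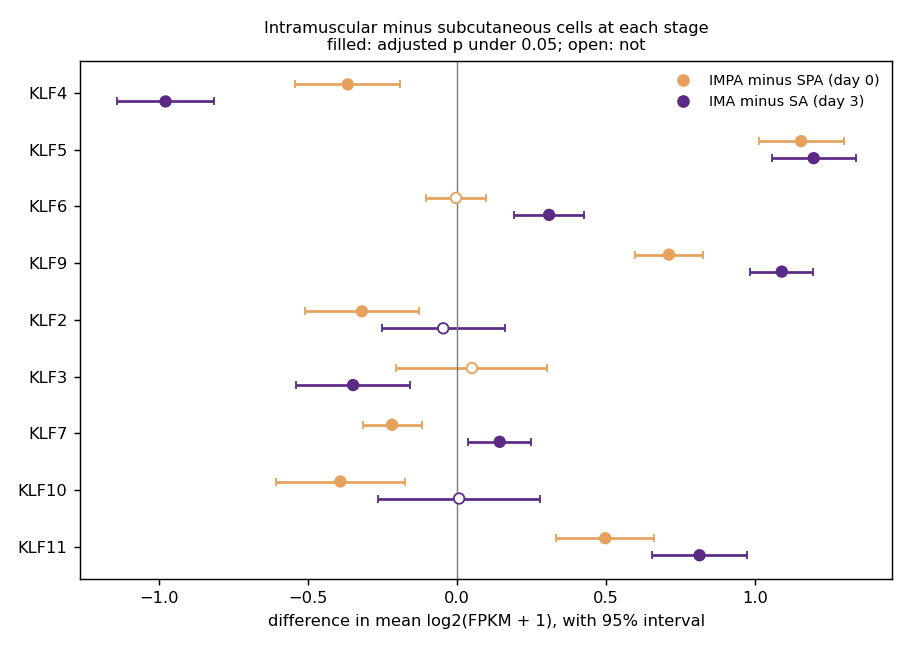
Difference between intramuscular and subcutaneous cells for 9 KLF members, in mean log2(FPKM + 1) with its 95% interval, at day 0 (IMPA minus SPA, orange) and day 3 (IMA minus SA, purple), 5 libraries in each group. Filled points passed an adjusted p under 0.05; KLF5, KLF9 and KLF11 lie above 0 and KLF4 below 0 at both stages, and KLF7 changes side.

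By role, the tested members did not move as a block. Of the 4 tested pro-adipogenic members, 1 rose, 2 fell and 1 was not called in the intramuscular cells (median log2 difference -0.00, against -0.09 over all genes tested, of which 19.9% rose and 40.2% fell). In the subcutaneous cells, 1 rose, 1 fell and 2 were not called (median 0.04, against -0.01 over all genes, of which 26.1% rose and 26.0% fell). Of the 3 anti-adipogenic members, 1 fell and 2 were not called in each cell type, KLF3 in the intramuscular and KLF7 in the subcutaneous cells (medians 0.10 and -0.20). Between the cell types, 2 of the 4 pro-adipogenic members were higher and 1 was lower in IMPA than in SPA, where 42.3% of all genes were higher and 32.9% lower. In IMA against SA, 3 were higher and 1 was lower, where 29.0% of all genes were higher and 43.4% lower. Under upper-quartile scaling the 5 calls of the intramuscular stage comparison were 4 higher and 1 lower in place of 2 and 3, since KLF5 and KLF7 gained a call upwards and KLF4 and KLF9 lost theirs.

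Of 7 other KLF genes, 3 were tested. KLF12, a repressor, averaged 4.18, 4.87, 2.18 and 2.83 FPKM in IMPA, IMA, SPA and SA and was higher in the intramuscular cells at both stages (IMPA minus SPA 0.70, adjusted p = 1.74e-07 by limma, and IMA minus SA 0.61, adjusted p = 4.66e-06). KLF12 also rose from SPA to SA (0.27, adjusted p = 0.00101), and KLF16 fell from IMPA to IMA (-0.19, adjusted p = 0.0147). KLF13 was not called in either stage comparison. KLF1, KLF8, KLF14 and KLF17 averaged under 1 FPKM in every group. Of 9 SP genes, the closest relatives of the family, 4 were tested, and SP3 (39.9, 35.2, 49.9 and 45.5 FPKM) exceeded every KLF member in every group mean. SP3 fell in both stage comparisons (-0.17, adjusted p = 0.000215, and -0.13, adjusted p = 0.0316), SP7 rose in both, and SP1 and SP4 were not called in either. The difference between their stage changes was not called for these 4 genes (adjusted p = 0.18 to 0.713), where 55.3% of all genes were called.

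Of 11 genes that KLF proteins act on or with, 5 were tested. CD36, a fatty acid transporter, averaged 0.252, 4.91, 0.0679 and 0.934 FPKM in IMPA, IMA, SPA and SA. It passed the filter of 1 FPKM only through IMA, the group where it was high, so its calls are not independent of that filter. The differences were 2.24 for IMA minus IMPA (adjusted p = 2.85e-10 by limma) and 0.84 for SA minus SPA (adjusted p = 2.62e-05). Both subcutaneous means were under 1 FPKM. CEBPD, an early inducer of adipogenesis, averaged 229, 158, 414 and 313 FPKM in IMPA, IMA, SPA and SA and fell in both cell types (-0.50, adjusted p = 0.0126, and -0.40, adjusted p = 1.83e-05). CEBPB, the target of KLF4, averaged 46.8, 40.5, 80.3 and 62.2 FPKM. It fell from SPA to SA (-0.36, adjusted p = 2.11e-05), where KLF4 rose, and was not called from IMPA to IMA (-0.20, adjusted p = 0.072). CEBPA, the target of KLF3, fell in both cell types (-0.68, adjusted p = 4.28e-06, and -0.31, adjusted p = 0.00794), and KLF3 fell in the first of them. Between cell types, CEBPA and CD36 were higher and CEBPB, CEBPD and SREBF1 lower in the intramuscular cells at both stages. PPARG, DLK1, SLC2A4, ADIPOQ, LPL and PLIN1 averaged under 1 FPKM over the libraries and were not tested. Among them, LPL was at 0.481 to 0.576 FPKM in SPA and 1.03 to 1.61 FPKM in SA, and averaged 1.02 FPKM in IMPA and 0.941 in IMA. The means of PPARG and PLIN1 were also higher in SA than in SPA, and that of ADIPOQ was lower (0.349 against 0.419 FPKM).

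All 7 genes of proteins that bind or modify KLF proteins were tested. In the intramuscular cells 4 fell (CTBP1, CTBP2, HDAC2 and SIN3A) and 3 were not called, and in the subcutaneous cells HDAC2 rose, CTBP2, HDAC1 and SIN3B fell, and 3 were not called. Of all genes tested, 40.2% fell in the intramuscular cells, and 26.1% rose and 26.0% fell in the subcutaneous cells. CTBP1, a partner of KLF3, was at 33.7 FPKM in IMPA and 25.5 FPKM in IMA (-0.39, adjusted p = 0.000111 by limma), and its stage changes differed between the cell types by -0.51 (adjusted p = 1.62e-05). HDAC2, a histone deacetylase, fell in the intramuscular cells (-0.15, adjusted p = 0.00427) and rose in the subcutaneous cells (0.35, adjusted p = 1.61e-06).

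Genes that respond to TGF-beta, to growth factors or to glucocorticoids, signals known to induce KLF genes, were set beside the members. Over all genes tested, 19.9% rose and 40.2% fell in the intramuscular cells, and 26.1% rose and 26.0% fell in the subcutaneous cells, the background for the counts of these lists. Of 10 TGF-beta early targets, 4 rose, 3 fell and 3 were not called in the intramuscular cells, and 2 rose, 7 fell and 1 was not called in the subcutaneous cells. TGFBI, an extracellular matrix protein, rose in the first (0.77, adjusted p = 3.59e-09 by limma) and fell in the second (-0.84, adjusted p = 8.83e-08), and SKIL, a feedback inhibitor, rose in both like KLF11 (0.61, adjusted p = 1.1e-05, and 0.30, adjusted p = 6.48e-05). For 6 of the 10 the stage change was higher in the intramuscular cells and 4 were not called, where 20.7% of all genes were higher in this test. KLF11 was among the members higher in it, a call lost in 2 of 31 alternatives, and KLF10 was not called. Of 14 immediate early genes, 12 were tested, of which 3 rose and 3 fell in the intramuscular cells and 1 rose and 8 fell in the subcutaneous cells. In the test of the difference between stage changes, 7 of these 12 were higher, 1 was lower and 4 were not called. EGR1, a growth factor response gene, fell in both (-1.33, adjusted p = 3.63e-06, and -1.89, adjusted p = 4.3e-10), and IER3 rose in the first (1.48, adjusted p = 4.18e-05) and fell in the second (-0.52, adjusted p = 8.64e-08). Of 7 glucocorticoid-responsive genes, 6 were tested, of which 1 rose and 2 fell in the intramuscular cells and 2 rose and 2 fell in the subcutaneous cells. TSC22D3, a standard target of the glucocorticoid receptor, rose from SPA to SA (0.93, adjusted p = 6.51e-07), where KLF9 fell. NR3C1, the receptor itself, was lower in the intramuscular cells at both stages (-1.41, adjusted p = 1.65e-08, and -1.35, adjusted p = 1.64e-11), where KLF9 was higher. Genes of the list also moved with KLF9 in some of the comparisons. TSC22D3 averaged 9.20 FPKM in IMPA and 4.32 FPKM in SPA, higher in the intramuscular cells at day 0 like KLF9. SGK1 averaged 25.9, 15.7, 28.6 and 18.5 FPKM in IMPA, IMA, SPA and SA, lower after induction in both cell types. GLUL averaged 39.2, 47.7, 70.5 and 55.5 FPKM in the same order. Its mean was lower after induction in the subcutaneous cells, like KLF9, and higher in the intramuscular cells, where KLF9 fell. At both stages the means of SGK1 and GLUL were lower in the intramuscular cells, where KLF9 was higher. A part of glucocorticoids in the level of KLF9 was not tested.

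For the 3 members whose group means spanned at least 1 on the log2 scale (KLF5, KLF9 and KLF11), the genes of most similar profile were sought by the root-mean-square difference between centred profiles over the 20 libraries. This is a description over libraries that share groups and cell types. Nearest to KLF5 were IGDCC4 (0.092), S1PR1 (0.102) and CFL2 (0.103), the last a cofilin of muscle. S1PR1 averaged 2.04 and 2.13 FPKM in IMPA and IMA, and 0.211 and 0.337 FPKM in SPA and SA. It passed the filter of 1 FPKM only through the intramuscular groups, where it was high. CFL2 averaged 55.8, 59.9, 23.9 and 23.5 FPKM in IMPA, IMA, SPA and SA. Nearest to KLF9 were TRIM2 (0.113), FRMD6 (0.114) and VCL (0.117), which encodes the adhesion protein vinculin and averaged 68.9, 57.9, 40.5 and 28.1 FPKM in the same order. Nearest to KLF11 were LOC102177581 (0.161), PYROXD2 (0.173) and SHTN1 (0.174), each highest in IMA like KLF11, which follows from their choice by profile.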

How the data were processed

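RNA-seq libraries of 20 goat cell cultures, 5 in each of 4 groups taken from the sample labels, were analysed at the level of mRNA. The authors aligned strand-specific paired-end reads to the goat assembly ARS1 with HISAT2 (version 2.0.4) and deposited FPKM values per transcript, made with StringTie (version 1.3.1), Ballgown and Cuffdiff. GATK (version 2.6-5) is also named in the submitters' processing notes, with no role given. The values are normalized to transcript length and mapped reads, and without counts the depth of a value is unknown, so no counting interval was set. The deposited table of long noncoding transcripts was not used here.

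FPKM was summed per gene symbol. Genes averaging 1 FPKM or more across all 20 libraries entered the test on log2(FPKM + 1) with limma (version 3.58.1, R 4.3.3) with a variance trend, fitting the 10 libraries of each comparison, or all 20 for the difference between stage changes, and p-values were adjusted by Benjamini-Hochberg over all genes tested. A log2 difference on this scale understates the change of low genes. Transcripts were fitted in the same way. KLF15, under the filter, was tested by a two-sided exact permutation test. The scripts were tested on simulated data. The members, roles and gene lists were chosen with earlier results of these data known. The named list genes are those of highest mean level or smallest p, with others added for a count or comparison after their values were seen. CCN1 and CCN2 were read under their older symbols CYR61 and CTGF, and FABP4 and MYH3 were not analysed here. Alternatives were pseudocount, filter, 3 scalings, variance model, single transcripts, all 20 libraries, a replicate block, and leaving out libraries, SPA replicate 1 and SA replicate 5 together among them, which per the read statistics of the study lost fewer reads in filtering than the other subcutaneous libraries. Leaving out libraries for the KLF4 transcript was added after seeing the data.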

Additional observations from a re-analysis of the deposited data

Results flagged for a closer look

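In 3 of 40 sets of 5 libraries (10 members in 4 groups), 1 library lay farther from the rest than Dixon's 95% critical value for the gap over the range, where chance alone gives about 1 in 20 sets. KLF3 was at 5.87 FPKM in SA replicate 3 (gap over range 0.716), KLF4 at 5.04 FPKM in IMA replicate 3 (0.793) and KLF11 at 6.15 FPKM in IMA replicate 1 (0.713), each the lowest of its group.

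The stage change differed between the cell types, by the limma test of the difference itself (IMA minus IMPA, less SA minus SPA, on the log2 scale), for KLF3 (-0.40), KLF4 (-0.61), KLF6 (0.31), KLF7 (0.36), KLF9 (0.38) and KLF11 (0.32). For KLF4 the change was called in each cell type, in opposite directions, and the call in the intramuscular cells was lost in 8 of 21 alternatives. For the difference itself, the calls for KLF3 and KLF11 were lost under some alternatives, with the highest adjusted p at 0.117 and 0.0991.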

How the results depend on the processing

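The numbers of genes and of KLF members called stayed within 1.5 times the reported number under every alternative run. Leaving out 1 library at a time gave 5 to 7 members called for IMA against IMPA, 4 to 5 for SA against SPA, 7 in each fit for IMPA against SPA, 6 to 7 for IMA against SA and 5 to 6 for the difference between stage changes. Whether the replicate numbers pair the samples could not be settled. In their deviations from the group means, same-numbered libraries of IMPA and IMA correlated at 0.04 to 0.12, with 4 of 5 correlating best with their own number, and those of SPA and SA at -0.24 to 0.12, with 0 of 5. Since not every pair passed 0.1, the fit without a block was kept. With the replicate number as a block, 6, 4, 7, 7 and 6 members and 6826, 5602, 8530, 8059 and 6304 genes were called in the 5 comparisons in the same order, with KLF10 gained in IMA against IMPA (adjusted p = 0.0102). Changes of sign occurred only for members that were not called. KLF6 turned positive in SA against SPA without SPA replicate 1 and SA replicate 5 together (0.0074), and in IMPA against SPA on single transcripts (0.045). KLF3 turned negative in IMPA against SPA under quantile normalization (-0.013). With 1 library left out at a time, the difference ran from -0.035 to 0.022 for KLF6 and from -0.058 to 0.116 for KLF3 in IMPA against SPA, and from -0.109 to 0.0047 for KLF2 and from -0.097 to 0.099 for KLF10 in IMA against SA. Since the files hold no counts, the precision of low members such as KLF15 and KLF2 rests on the spread of 5 libraries alone.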
